A study of Mus musculus with 5 samples.

Results

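Aminoacyl tRNA synthetases and genes of the ATF4 stress response were examined in regulatory T cells (Tregs) of neonatal mouse skin and of the lymph nodes that drain it. The set holds 48 of the 24084 genes in the count table. They are 20 cytosolic synthetases, 17 mitochondrial synthetases and 11 further genes (Atf4 and 10 of its known targets). Synthetases were taken by symbol (a letter followed by ars, with a 2 for the mitochondrial enzymes, plus Eprs, Farsa and Farsb) and the ATF4 genes by name.

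The study sequenced messenger RNA of sorted Tregs from mice of the Foxp3-DTR/GFP line aged 13 days, in 3 libraries from skin-draining lymph node and 2 from skin. Both groups carry the same allele, in which cells that express Foxp3, the Treg transcription factor, also make the receptor for diphtheria toxin and a green fluorescent reporter, and neither group is labelled with a treatment. How the cells were gated and how many mice each library represents is not known from the sources used here. The p-values therefore measure only differences among these 5 libraries, which may be technical. The comparison asks how Tregs in neonatal skin differ from those in the draining nodes.

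Aminoacyl tRNA synthetases join each amino acid to its matching tRNA, the step that sets the meaning of a codon. The cytosol and the mitochondrion use mostly separate enzymes, all encoded in the nucleus, while Gars and Kars each serve both compartments and are counted here as cytosolic by their symbols. When amino acids run short or the endoplasmic reticulum is stressed, kinases phosphorylate the translation factor eIF2, general translation slows, and translation of ATF4 rises. ATF4 is a transcription factor that, paired with C/EBP proteins, binds C/EBP-ATF response elements and induces many cytosolic synthetases, amino acid transporters and enzymes of asparagine and serine synthesis. Proliferating T cells depend on serine and mitochondrial one-carbon metabolism for nucleotides. ATF4 is controlled largely at translation, which RNA counts do not show.

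The letters that ATF4 is known to read were searched in the promoters. The synthetases were taken by symbol, without use of these letters. The ATF4 genes were named as known targets, so a match among those is not independent of the choice. The motif was TGATGNAA, which reads TTNCATCA on the opposite strand, in RefSeq windows (GRCm38.p6) from 250 bases before to 50 bases after a gene's start. A window was at hand for 38 of the 48 genes. The motif was present in 5 of 13 cytosolic synthetase genes (38.5%), 0 of 14 mitochondrial synthetase genes and 3 of 11 genes of the ATF4 set (27.3%). Over all 27025 genes with a window the share was 4.51%, and over all 32851 windows 3.97%. For each of these genes the 30 bases around the match nearest the start are printed here in the direction of the gene, with the motif in capitals.
Aars, chr8:111033840-111033869, plus strand: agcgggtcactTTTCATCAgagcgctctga
Gars, chr6:55037960-55037989, plus strand: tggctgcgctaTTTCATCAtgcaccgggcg
Iars, chr13:49682126-49682155, plus strand: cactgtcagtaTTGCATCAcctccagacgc
Tars, chr15:11399655-11399684, minus strand: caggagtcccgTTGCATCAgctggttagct
Yars, chr4:129189895-129189924, plus strand: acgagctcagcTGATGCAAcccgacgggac
Asns, chr6:7693214-7693243, minus strand: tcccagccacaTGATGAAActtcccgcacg
Chac1, chr2:119351038-119351067, plus strand: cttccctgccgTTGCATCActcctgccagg
Trib3, chr2:152344028-152344057, minus strand: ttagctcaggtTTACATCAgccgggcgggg
Aars, the alanyl-tRNA synthetase gene, had the printed match 9 bases after its RefSeq start, which lies downstream of the gene start given by GENCODE. Of the stretches listed, those of Yars and Asns carried it on the strand of the gene and the others on the opposite strand. A match is a description of letters and not a bound site. The endoplasmic reticulum stress response element (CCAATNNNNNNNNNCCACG, both strands; its letters do not overlap with the first motif) was found in 0 of the 38 genes and in 0.137% of all genes.

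Libraries held 10468795 to 14595018 counts assigned to genes, and 12173 to 12540 genes had a count in the lymph node libraries against 9192 and 9894 in the skin libraries. Across 11437 tested genes, log2 CPM (counts of a library relative to its TMM-scaled size) correlated at 0.935 to 0.942 between lymph node libraries and at 0.645 between the skin libraries, as a description. The Treg markers were present in both groups, with 10 of 10 detected and summed levels of 12536 to 14288 CPM of unscaled gene counts in lymph node and 11736 and 13214 in skin. Myeloid markers summed to 130 to 202 CPM in lymph node and to 2271 and 2852 in skin (18 of 19 detected in skin, Itgax at 0). Keratinocyte markers summed to 20.1 to 26.01 in lymph node and to 207 and 277 in skin (9 of 14 detected in skin, with Krt1, Krt10, Dsg1a, Lor and Cdh1 at 0). CD8 T and natural killer cell markers summed to 157 to 243 and to 473 and 764, where Nkg7 carried most of the skin sum and Cd8a, Ncr1, Klrb1c, Klrk1, Eomes, Gzma and Klra8 were at 0. B cell markers summed to 85.4 to 234 against 21.9 and 69.2, with 8 of 9 at 0 there. Mast cell markers summed to at most 27.4 in any library, and fibroblast and endothelial markers to 355 to 522 in lymph node and 338 and 185 in skin. That last sum hides opposite members, since Pecam1 was at 352 to 500 CPM in lymph node and 55.9 and 2.90 CPM in skin, while Ednrb had no lymph node count and 196 and 181 CPM in skin and Sparc was at 0.0679 to 3.29 CPM against 84.6 and 8.09 CPM. The part of these other cells in the results below was not tested, and in bulk samples fewer cells of a type and less RNA per cell cannot be told apart.

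Of the 47 genes of the set that were tested, Aars was higher and Wars2 lower in skin Tregs, and 45 did not pass. Wars2 passed the low-count filter through its lymph node counts alone. Chac1 had no count in any library and was not tested. The call rests on edgeR's quasi-likelihood test, adjusted by Benjamini-Hochberg across the 11437 tested genes and called at an adjusted p under 0.05. It called 881 genes (7.70%), 275 of them higher (2.40%) and 606 lower (5.30%). The 2 calls among 47 genes are not above that background. At an unadjusted p under 0.05 there were 13 of the 47 and 3372 of the 11437 tested genes. DESeq2 called 12 of the 47 and limma-voom 10, against 28.5% and 19.5% of all tested genes, and the names are given in the account of each group. Other scalings in edgeR called 3 (RLE size factors, background 7.97%) and 2 (no scaling, 7.61%). Without a low-count filter 0 were called (background 2.21%). In that fit 13 of the 47 had an unadjusted p under 0.05, as did 3413 of all 14249 genes. With genes under an average log2 CPM of 5 left out, 1 of 33 was called (6.12%). With the replicate number as a block 0 were called (0.184%). There 1 of the 47 had an unadjusted p under 0.05, as did 772 of the 11437 tested genes. Without skin library 1 the count was 26 of 47 against 48.7% of all tested genes, and without skin library 2 it was 20 against 39.2%.

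Among the 20 cytosolic synthetases, Aars rose, 0 fell by edgeR (2 had an unadjusted p under 0.05 and a lower level in skin) and 19 did not pass. Of all 11437 tested genes, 3372 had an unadjusted p under 0.05, in either direction. For the cytosolic synthetases the results were as follows. Their median log2 fold change, skin relative to lymph node, was -0.39 against -0.21 over all tested genes, with 6 positive and 14 negative values. It was -0.80 by limma-voom and -0.76 with the replicate number as a block, where the median over all tested genes was -0.85 and -0.86. The summed level of the cytosolic synthetases was 3350, 3428 and 3514 CPM in the lymph node libraries and 2798 and 3155 CPM in the skin libraries. All 20 had counts in every library. For 3 genes both skin values exceeded all lymph node values, and for 4 both were below them, where 16.8% and 33.5% of all tested genes did so.

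**Figure D1:**
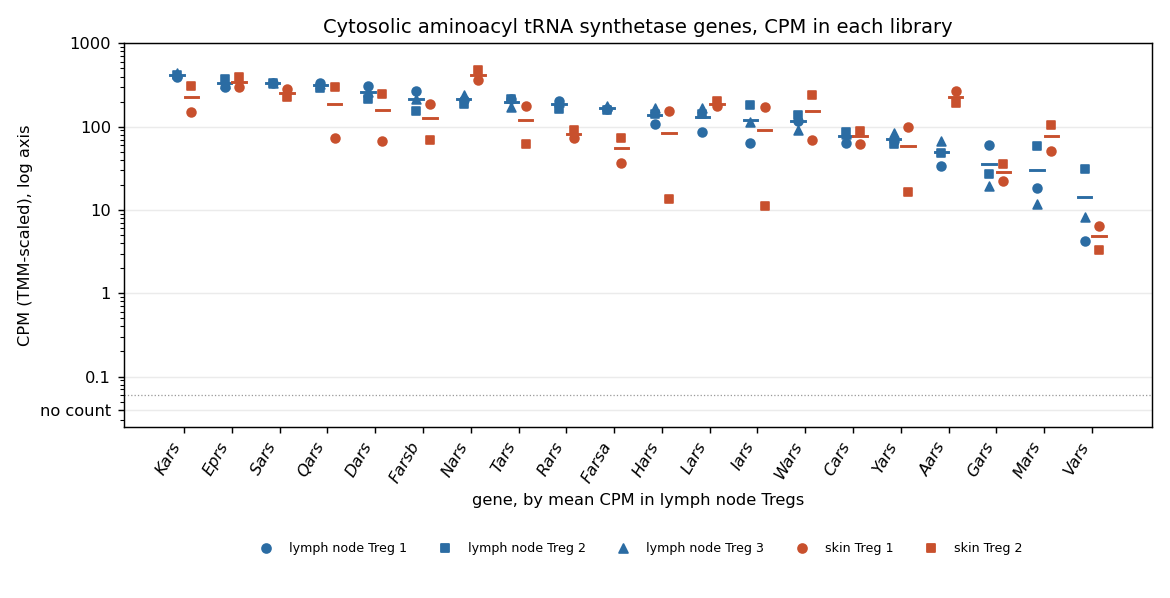
CPM of each cytosolic synthetase gene (log axis) in the 3 lymph node Treg libraries (blue) and the 2 skin Treg libraries (red), with the group mean as a bar, ordered by the lymph node mean. Aars, Nars and Lars have both skin points above every lymph node point, and every gene has a count in each library.

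Aars encodes the alanyl-tRNA synthetase and lies at chr8:111033144-111057664 (mm10, plus strand). Its level was 33.4, 48.4 and 67.8 CPM in the lymph node libraries and 268 and 191 CPM in the skin libraries. Both skin values stood well above the highest lymph node value. Means were 49.8 ± 17.3 CPM (SD, n = 3) and 229 ± 55.1 CPM (SD, n = 2). The log2 fold change was 2.20 (SE 0.42, 95% interval 1.16 to 3.25, adjusted p = 0.0478 by edgeR's quasi-likelihood test). It was positive under all 12 alternative analyses, from 1.93 to 2.49, with adjusted p from 3.49e-05 to 0.524, and it passed in 7 of them. The call was lost without a low-count filter, with the replicate number as a block, and without any 1 lymph node library, where edgeR called 0 genes of the whole table (2361 to 2485 at an unadjusted p under 0.05). Aars shares 1326 exon bases (23.1% of its exon length) with Exosc6 on the same strand. Exosc6 itself was at 1.56 to 2.74 CPM in lymph node and at 5.52 and 0 CPM in skin.

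The cytosolic enzymes of the multi-tRNA synthetase complex, in which several synthetases are held together by scaffold proteins, gave 0 calls by edgeR among 8 genes, with a median log2 fold change of -0.57, and 1 call, Rars, by DESeq2 and by limma-voom. Over all tested genes edgeR called 7.70%, DESeq2 28.5% and limma-voom 19.5%. Kars, the lysyl-tRNA synthetase of this complex, had 398, 413 and 444 CPM in lymph node and 148 and 310 CPM in skin. Both skin values were below all lymph node values, but they differed from each other by more than the lymph node libraries did. The log2 fold change was -0.87 (SE 0.36, adjusted p = 0.183). Eprs, which charges both glutamate and proline, had 296, 377 and 330 CPM against 299.9 and 391 CPM, so the groups overlapped, with skin library 2 slightly above the highest lymph node value. Its log2 fold change was 0.05 (SE 0.24, 95% interval -0.54 to 0.64, adjusted p = 0.928).

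Rars, the arginyl enzyme of the complex, had 201, 164 and 197 CPM in lymph node and 72.4 and 92.2 CPM in skin. The groups did not overlap, and the log2 fold change of -1.19 (SE 0.30) had an adjusted p of 0.0635 by edgeR. Iars, the isoleucyl enzyme, had 64.3, 181 and 113 CPM against 170 and 11.2 CPM, so that 1 skin library was near the top of the lymph node range and the other far under it (adjusted p = 0.863). Qars, the glutaminyl enzyme, had 331, 293 and 328 CPM against 72.3 and 303 CPM, here with skin library 1 the low one and skin library 2 inside the lymph node range (adjusted p = 0.475).

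Outside the complex, 2 genes were described by the same rule. Nars, the asparaginyl-tRNA synthetase, had 207, 189 and 243 CPM in lymph node and 368 and 473 CPM in skin. Both skin values exceeded every lymph node value, with a log2 fold change of 0.98 (SE 0.24, 95% interval 0.38 to 1.57, adjusted p = 0.0595 by edgeR). DESeq2 and limma-voom called it higher. Sars, the seryl-tRNA synthetase, had 333, 331 and 337 CPM against 287 and 227 CPM. Its lymph node libraries were nearly equal and its skin libraries lower, but the difference did not pass (log2 fold change -0.38, SE 0.22, adjusted p = 0.317).

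Farsa, the catalytic subunit of the phenylalanyl enzyme, had 163, 159 and 176 CPM against 37.1 and 73.0 CPM. Skin was lower in both libraries, with a log2 fold change of -1.59 (SE 0.41, adjusted p = 0.0661 by edgeR). Farsb, the other subunit, had 269, 156 and 216 CPM against 186 and 70.0 CPM, and its groups overlapped (adjusted p = 0.405). DESeq2 and limma-voom called Farsa and Rars lower, and edgeR did not. The remaining 10 cytosolic genes (Cars, Dars, Gars, Hars, Lars, Mars, Tars, Vars, Wars and Yars) had log2 fold changes from -1.56 to 1.39 and adjusted p from 0.366 to 0.976.

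A division by what is known of ATF4 was made within the cytosolic enzymes. The 12 that are commonly listed as its targets (Aars, Cars, Eprs, Gars, Iars, Lars, Mars, Nars, Sars, Tars, Wars and Yars) had a median log2 fold change of 0.01, with 6 positive and 6 negative values. Their summed level was 1564, 1855 and 1717 CPM in lymph node and 2053 and 2043 CPM in skin. Without Aars and Nars the sums of the other 10 overlapped, at 1323, 1618 and 1406 CPM and at 1416 and 1380 CPM. The other 8 (Dars, Farsa, Farsb, Hars, Kars, Qars, Rars and Vars) had a median of -0.81 and 8 negative values, from -1.59 to -0.72, where 6373 of the 11437 tested genes were negative. Their summed level was 1787, 1573 and 1797 CPM in lymph node and 745 and 1112 CPM in skin. Aars alone of the 20 was called, and no test of the difference between these sets was made. Signs held under both other scalings except for Cars (0.02 with DESeq2's size factors) and Eprs (-0.01 with no scaling), both in the first set. Hars turned to 0.15 without skin library 2. Farsb was then at -0.21, and without skin library 1 Dars was at -0.09 and Qars at -0.07. Farsa, Kars, Rars and Vars were at -1.19, -0.44, -1.03 and -2.13 without skin library 1. Without skin library 2 they were at -2.17, -1.50, -1.38 and -1.16.

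By structural class, which divides the enzymes by the fold of their catalytic core, the 10 class I cytosolic enzymes had a median log2 fold change of -0.16 with 0 calls by edgeR and 1, Rars, by DESeq2 and by limma-voom. The 10 class II enzymes had -0.73 with 1 call by edgeR, Aars, and 2 higher (Aars and Nars) and 1 lower (Farsa) by both DESeq2 and limma-voom. The shares called over all tested genes, in either direction, were 7.70% by edgeR, 28.5% by DESeq2 and 19.5% by limma-voom.

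**Figure D2:**
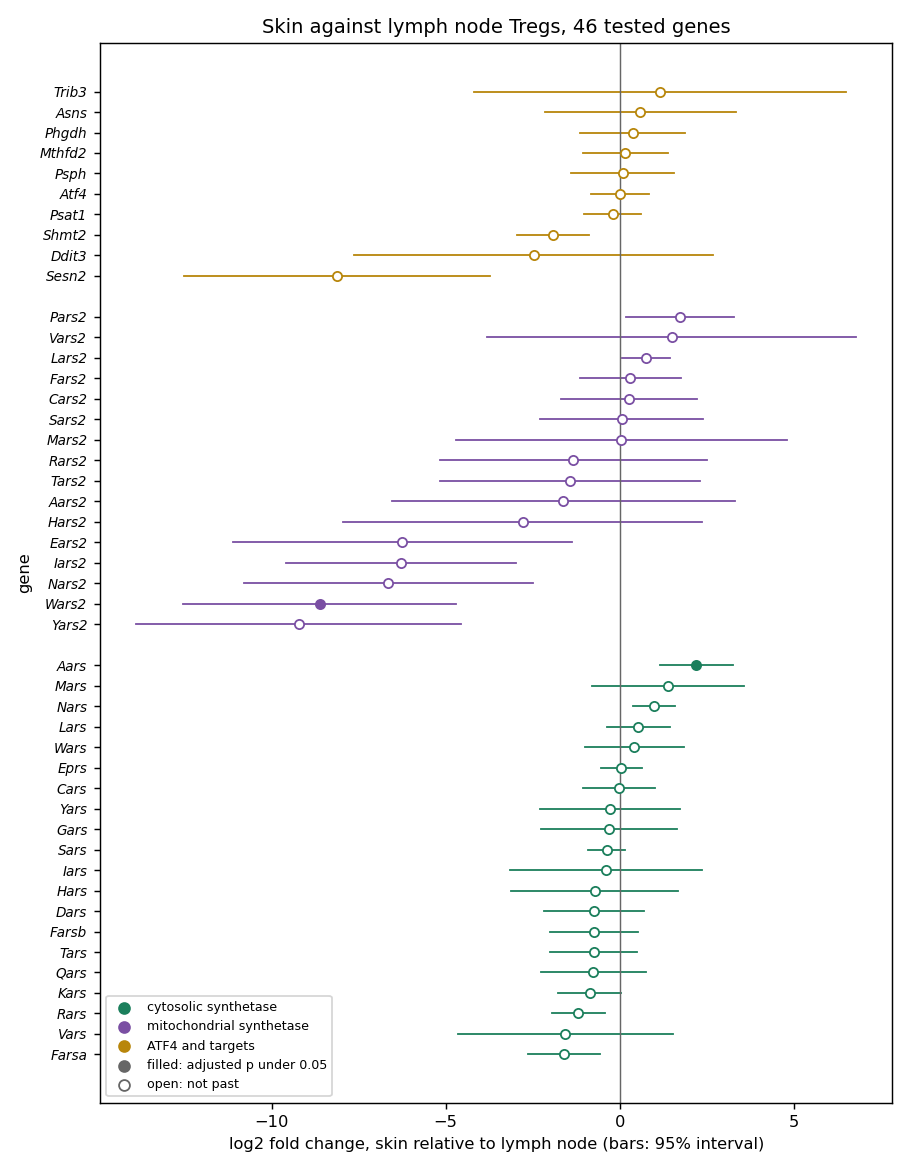
Log2 fold change of skin relative to lymph node Tregs for 46 tested genes with 95% intervals, by group and filled where the adjusted p is under 0.05. Aars (2.20) and Wars2 are the filled points, and the intervals of the mitochondrial genes are wide where a skin library holds few counts.

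Among the 17 mitochondrial synthetases, Wars2 fell, 0 rose by edgeR and 16 did not pass. An unadjusted p under 0.05 was seen for 2 with a higher level in skin and 5 with a lower one. Over all tested genes it was seen for 3372 of 11437, in either direction. DESeq2 called 1 mitochondrial synthetase, Pars2, higher, and limma-voom 0. The median log2 fold change of the mitochondrial synthetases was -1.42, with 7 positive and 10 negative values. It was -3.47 by limma-voom, -3.52 with the replicate number as a block, -5.76 without skin library 1 and -0.52 over the 6 genes at an average log2 CPM of 5 or more. Their summed level was 823, 802 and 960 CPM in lymph node and 855 and 895 CPM in skin, and Lars2 held most of the skin sum. Lars2 alone had 276, 253 and 377 CPM in lymph node and 434 and 587 CPM in skin. The sum therefore does not describe the other mitochondrial genes. No mitochondrial synthetase gene lacked a count in a lymph node library, against 5.51% of all tested genes, but 9 of 17 had none in 1 or both skin libraries, against 31.3% of all tested genes. Both skin values lay below all lymph node values for 9 genes and above them for 2, where 33.5% and 16.8% of all tested genes did so.

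**Figure D3:**
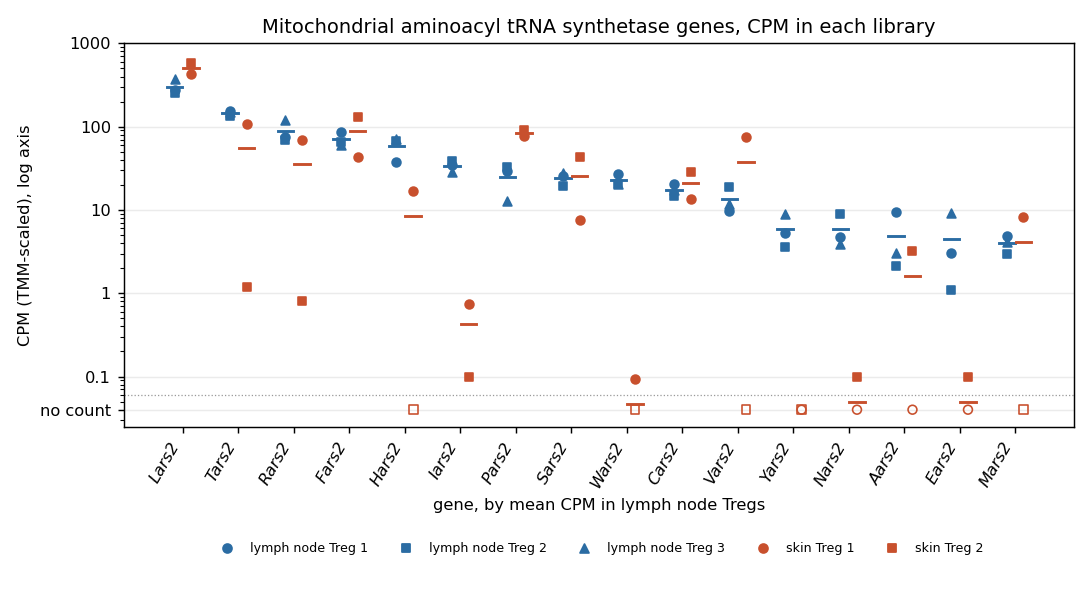
CPM of 16 mitochondrial synthetase genes (log axis, libraries without a count on the lowest line) in 3 lymph node and 2 skin Treg libraries, with the group mean as a bar. The 2 skin points lie far apart for Tars2, Rars2, Hars2 and Vars2, while Lars2 and Pars2 have both skin points above all lymph node points.

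Wars2, the mitochondrial tryptophanyl-tRNA synthetase (chr3:99141068-99239186, plus strand), had 26.7, 20.5 and 20.6 CPM in the lymph node libraries and 0.0936 and 0 CPM in the skin libraries. The lymph node values were close to each other and skin held 1 count in all. The ratio of lymph node to skin was 469 (95% counting interval 84.0 to 18542) and the adjusted p 0.0463 by edgeR's quasi-likelihood test. Such intervals and floors take in only counting error, because amplified reads lacking molecular identifiers are not separate molecules. The log2 fold change was negative in all 11 alternative analyses that tested it, from -11.19 to -7.78, with adjusted p from 3.21e-07 to 0.712, and it passed in 6. The call was lost in the same analyses as that of Aars, and the filter at an average log2 CPM of 5 left Wars2 out.

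Almost no skin counts were also present for 4 mitochondrial genes that did not pass with edgeR, 3 of them at low lymph node levels. Iars2, the isoleucyl enzyme, had 35.0, 38.5 and 28.5 CPM against 0.749 and 0.0999 CPM, with both skin libraries under 1 CPM (adjusted p = 0.0503, log2 fold change -6.29 with SE 1.31). It shares 30.5% of its exon bases with Rab3gap2 on the opposite strand, which was at 28.0 to 47.02 CPM in lymph node and 82.3 and 163 CPM in skin. Yars2, the tyrosyl enzyme, had 5.27, 3.61 and 9.04 CPM and no skin count, a ratio of at least 42.0 against a floor of 3 counts over the skin group (adjusted p = 0.0523). Nars2, the asparaginyl enzyme, had 4.78, 9.02 and 3.94 CPM against 0 and 0.0999 CPM. Ears2, the glutamyl enzyme, had 3.02, 1.10 and 9.31 CPM against 0 and 0.0999 CPM, with the lymph node libraries far apart. Each had 1 skin count in all, with ratios of lymph node to skin of 120 (95% counting interval 21.3 to 4743) and 96.3 (17.1 to 3822) and adjusted p of 0.0623 and 0.0976. DESeq2 and limma-voom called all 5 of these genes, Wars2 included, lower in skin. Over all 11437 tested genes DESeq2 called 2027 lower and limma-voom 1665. All 5 mitochondrial genes passed the low-count filter through their lymph node counts alone.

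Lars2, the mitochondrial leucyl-tRNA synthetase, was an abundant exception with 276, 253 and 377 CPM in lymph node and 434 and 587 CPM in skin. Both skin values were above all lymph node values, with a log2 fold change of 0.76 (SE 0.27, 95% interval 0.07 to 1.44, adjusted p = 0.138). Pars2, the prolyl enzyme, had 29.4, 33.2 and 13.0 CPM against 77.2 and 90.3 CPM. The groups did not overlap, and the log2 fold change was 1.73 (SE 0.62, adjusted p = 0.134 by edgeR).

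For other mitochondrial enzymes the skin libraries differed widely from each other. Tars2, the threonyl enzyme, had 155, 135 and 152 CPM in lymph node and 108 and 1.20 CPM in skin. Rars2, the arginyl enzyme, had 75.2, 69.8 and 120 CPM against 69.5 and 0.799 CPM. Skin library 1 was near the lymph node values for both genes and skin library 2 was far lower. Fars2, the phenylalanyl enzyme, had 86.0, 66.0 and 60.4 CPM against 43.1 and 132 CPM, here with skin library 2 the higher (log2 fold change 0.31, SE 0.58, adjusted p = 0.792). Vars2, the valyl enzyme, had 9.83, 18.97 and 11.8 CPM against 75.9 and 0 CPM. The log2 fold changes of Tars2 and Rars2 were -1.42 (SE 1.49) and -1.33 (SE 1.53), with adjusted p of 0.603 and 0.639. Aars2, Cars2, Hars2, Mars2 and Sars2 had log2 fold changes from -2.79 to 0.27 and adjusted p from 0.444 to 0.990.

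This spread was measured over the set. The skin libraries were 4-fold or more apart for 4 of 20 cytosolic, 8 of 17 mitochondrial and 3 of 10 tested genes of the ATF4 set, against 37.0% of all tested genes. The lymph node libraries spanned 4-fold or more for 2, 2 and 1 of them, against 15.0%. Among genes with a lymph node mean of 20 CPM or more, 0 of 19 cytosolic, 5 of 10 mitochondrial and 1 of 8 genes of the ATF4 set were under 1 CPM in 1 or both skin libraries. The share over all such genes was 20.6% of 6660. This count admits genes by their lymph node level. In the reverse count, of genes with a skin mean of 20 CPM or more, 0 of 19, 0 of 8 and 0 of 7 were under 1 CPM in any lymph node library, against 4.92% of 6686. Of the 6 genes, 2 were under 1 CPM in both skin libraries (Iars2 and Wars2), and Rars2, Hars2 and Ddit3 were so in skin library 2 alone.

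**Figure D4:**
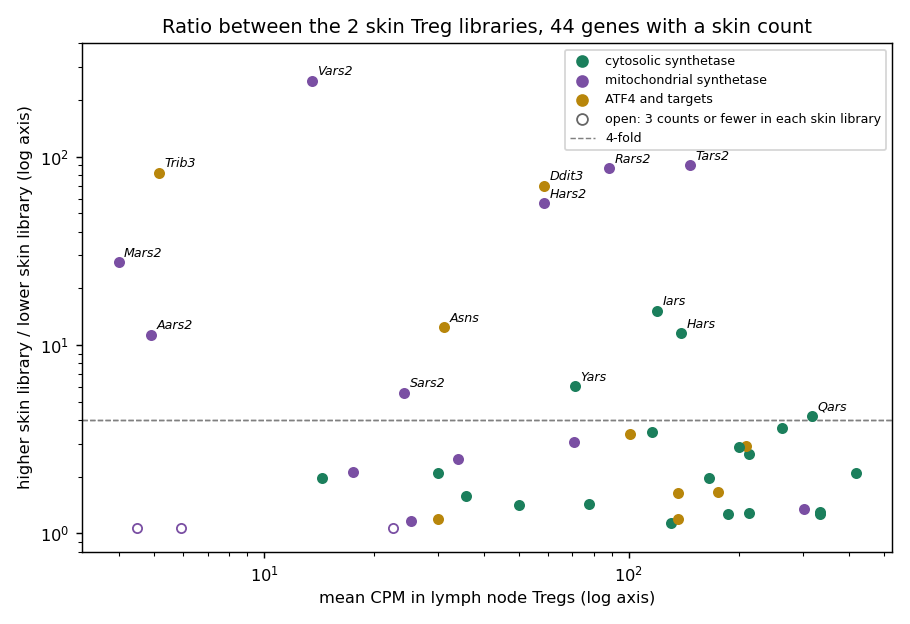
Ratio of the higher to the lower skin library against the mean lymph node CPM (both log axes) for 44 genes of the set with a skin count, with values under 3 counts set to 3 counts. Points above the dashed 4-fold line include 7 mitochondrial and 4 cytosolic synthetases, and open points have 3 counts or fewer in each skin library, where the ratio carries no information.

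Levels of different genes were compared per kilobase of exon. The median over the cytosolic synthetases was 59.1 CPM per kb in lymph node and 41.1 in skin, and that over the mitochondrial synthetases 8.27 and 2.54. In 17 pairs of a cytosolic and a mitochondrial enzyme for the same amino acid, the cytosolic gene had the higher level per kb in 16 pairs in lymph node and 14 in skin. The pairs are not all separate, since Eprs was paired with both Ears2 and Pars2. Fars2 was paired with Farsa and not with Farsb. In skin this choice decides the pair, with Fars2 at 37.4, Farsa at 30.1 and Farsb at 58.1 CPM per kb. Vars2 exceeded Vars in skin through library 1 alone (75.9 and 0 CPM against 6.46 and 3.30 CPM). The exception in lymph node by group means was leucine, with Lars2 at 77.6 and Lars at 32.8 CPM per kb. The valine pair was close, with Vars at 3.49 and Vars2 at 3.06 CPM per kb. Vars had 4.21, 30.9 and 8.22 CPM in the lymph node libraries and Vars2 9.83, 18.97 and 11.8 CPM. The order of the valine means thus rests on lymph node library 2. Kars had the highest level per kb of the set in lymph node Tregs (186), followed by Qars (113) and Dars (107). Nars had the highest in skin Tregs (144), followed by Lars2 (131) and Mthfd2 (113). Library values of Qars and Dars overlapped in lymph node, and those of Nars, Lars2 and Mthfd2 overlapped in skin. The mitochondrial gene of a pair had the lower log2 fold change in 11 of 17 pairs.

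Atf4 and its 10 named targets showed 0 calls among 10 tested genes by edgeR. An unadjusted p under 0.05 was reached by 2 of them, both lower in skin, and by 3372 of all 11437 tested genes. DESeq2 called Shmt2 and Sesn2 lower and limma-voom Sesn2, against 28.5% and 19.5% of all tested genes called in either direction. The median log2 fold change was 0.05, with 6 positive and 4 negative values. Its sign was not stable, with -0.28 by limma-voom, -0.42 with the block, -0.0044 with no scaling, -0.0351 without lymph node library 2, and -0.51 and -1.26 without skin library 1 and 2. Their summed level was 974, 838 and 848 CPM in lymph node and 857 and 697 CPM in skin. Both skin values were below all lymph node values for 3 genes (Shmt2, Ddit3 and Sesn2) and above them for 0, where 33.5% and 16.8% of all tested genes did so.

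**Figure D5:**
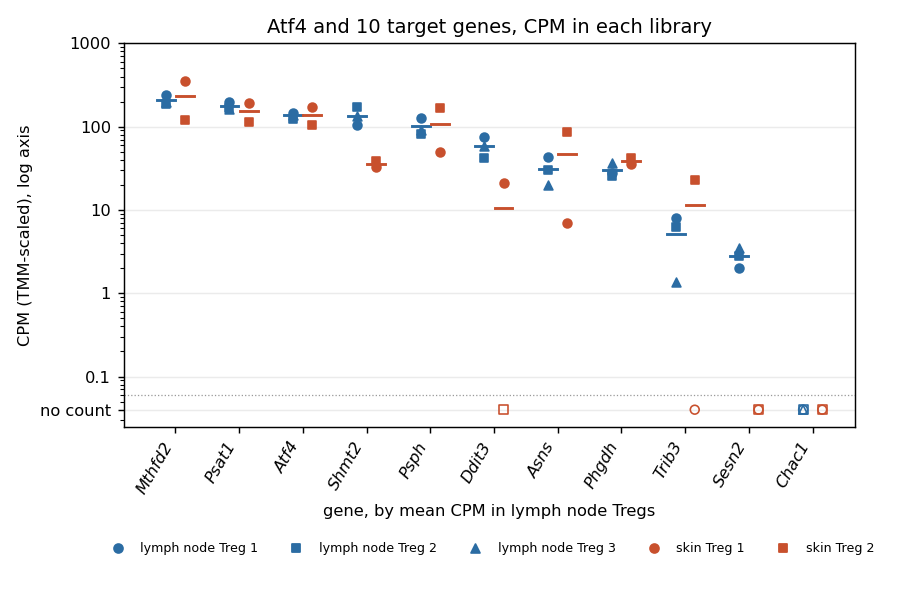
CPM of Atf4 and 10 target genes (log axis, libraries without a count on the lowest line) in 3 lymph node and 2 skin Treg libraries, with the group mean as a bar. Atf4 overlaps between groups, Shmt2 lies lower in both skin libraries, and Chac1 has no count in any library.

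Atf4 itself (chr15:80255184-80257541, plus strand) had 147, 124 and 138 CPM in lymph node and 170 and 104 CPM in skin. The skin libraries stood on either side of the lymph node values, which were close together. Means were 136 ± 11.7 CPM (SD, n = 3) and 137 ± 46.7 CPM (SD, n = 2), with a log2 fold change of 0.01 (SE 0.33, 95% interval -0.83 to 0.85, adjusted p = 0.989). The interval still holds changes of nearly 0.85 on the log2 scale in either direction.

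The stress regulators downstream of Atf4 were at low or uneven levels. Ddit3, which encodes the pro-apoptotic factor CHOP, had 75.1, 42.0 and 58.4 CPM in lymph node and 21.1 and 0 CPM in skin. Both skin values were lower, but they differed widely from each other (log2 fold change -2.47, SE 2.06, adjusted p = 0.499). It shares 68 exon bases with Mars on the opposite strand. Trib3, a pseudokinase that feeds back on ATF4, had 7.94, 6.19 and 1.36 CPM against 0 and 23.1 CPM, with skin on both sides of the lymph node range (adjusted p = 0.785). Sesn2, a leucine sensor that restrains mTORC1, had 2.04, 2.82 and 3.47 CPM and no skin count, a ratio of at least 19.2 (adjusted p = 0.0552 by edgeR). Sesn2 passed the low-count filter through its lymph node counts alone. Chac1, which degrades glutathione, had no count in any library, which allows up to 0.0719 CPM over the lymph node group and 0.145 CPM over the skin group.

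The 6 enzymes of asparagine, serine and one-carbon metabolism had a median log2 fold change of 0.13, with 4 positive and 2 negative values. Asns, asparagine synthetase, had 43.7, 29.9 and 20.04 CPM in lymph node and 7.02 and 87.3 CPM in skin, below and above the whole lymph node range (log2 fold change 0.59, SE 1.09, adjusted p = 0.786). Of the serine synthesis enzymes, Phgdh, which takes the first step, had 28.0, 25.6 and 36.3 CPM against 35.5 and 42.3 CPM. Psat1, which takes the second step, had 196, 167 and 164 CPM against 191 and 115 CPM. Both overlapped between the groups (log2 fold changes 0.37 and -0.20, adjusted p = 0.749 and 0.750). Psph, which takes the last step, had 127, 82.3 and 92.4 CPM against 49.0 and 166 CPM and again lay on both sides (adjusted p = 0.943). Psph shares 26.1% of its exon bases with Cct6a on the opposite strand, a gene at 423 to 479 CPM in lymph node and 598 and 678 CPM in skin.

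Shmt2, the mitochondrial enzyme that passes the one-carbon unit of serine to folate, had 104, 171 and 134 CPM in lymph node and 32.7 and 39.1 CPM in skin. The skin libraries were close to each other and both under every lymph node library. Means were 136 ± 33.6 CPM (SD, n = 3) and 35.9 ± 4.58 CPM (SD, n = 2), with a log2 fold change of -1.92 (SE 0.41, 95% interval -2.96 to -0.89, adjusted p = 0.0517 by edgeR). Mthfd2, the next mitochondrial folate enzyme, had 243, 187 and 200.2 CPM against 351 and 120 CPM. Its skin libraries lay above and below the lymph node range, and the difference did not pass (log2 fold change 0.16, SE 0.48, adjusted p = 0.872).

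Other genes of the pathway were taken from fixed lists. For every list, the background is 28.5% of all tested genes called by DESeq2 and 19.5% by limma-voom, in either direction. For an unadjusted p under 0.05 by edgeR it is 3372 of the 11437 tested genes. Of the genes that act upstream of ATF4 (eIF2 subunits, its kinases, its exchange factor eIF2B and its phosphatase), 1 of 15 rose and 2 fell by edgeR, where 2.40% of all tested genes rose and 5.30% fell, with a median log2 fold change of 0.14. DESeq2 called 3 higher and 2 lower, and limma-voom 1 higher and 2 lower. Ppp1r15a, the stress-induced phosphatase subunit GADD34 and itself a known target of ATF4, had 10.4, 40.7 and 37.2 CPM in lymph node and 612 and 264 CPM in skin. Both skin values were far above all lymph node values (log2 fold change 3.89, SE 0.71, adjusted p = 0.0465 by edgeR). Eif2s1, the eIF2 subunit that is phosphorylated, had 270, 211 and 208 CPM against 55.5 and 35.2 CPM and fell (log2 fold change -2.34, SE 0.36, adjusted p = 0.0429). Eif2b3, a subunit of eIF2B, had 89.3, 60.1 and 70.7 CPM and no skin count, and was at least 509-fold lower (adjusted p = 0.0305 by edgeR). Eif2b3 passed the low-count filter through its lymph node counts alone.

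Among partners and regulators of ATF4, 2 of 10 tested genes rose (background 2.40%) and 0 fell by edgeR, with 3 higher and 1 lower at an unadjusted p under 0.05. DESeq2 called 3 higher and 1 lower, and limma-voom 3 higher and 0 lower. Atf6, the transcription factor of another stress arm, had 31.4, 42.5 and 49.7 CPM against 270 and 145 CPM (adjusted p = 0.0465, log2 fold change 2.33 with SE 0.43 by edgeR). Nupr1, a stress-induced chromatin protein, had no count in the 3 lymph node libraries and 22.1 and 66.7 CPM in skin (adjusted p = 0.0484 by edgeR). Nupr1 passed the low-count filter through its skin counts alone. Among 17 tested other target genes of ATF4, 1 rose (background 2.40%) and 0 fell by edgeR, with 3 higher and 1 lower at an unadjusted p under 0.05. DESeq2 called 4 higher and 1 lower, and limma-voom 2 higher and 0 lower. The median log2 fold change was 0.79, with 13 positive values. Got1, the cytosolic aspartate aminotransferase, was the one that rose, from 96.1, 99.8 and 111 CPM to 267 and 234 CPM (adjusted p = 0.0484, log2 fold change 1.29 with SE 0.25). The median of these 17 is that of genes past the low-count filter only, out of 28 listed.

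Of the helpers of tRNA charging, 1 of 10 in the cytosol and 2 of 10 in the mitochondrion fell by edgeR, where 5.30% of all tested genes did, and each of the 3 passed the low-count filter through its lymph node counts alone. DESeq2 called 2 and 3 lower, and limma-voom 1 and 3. Of 10 scaffold and helper genes of the cytosol, Xpot, the tRNA export receptor, fell from 17.6, 21.9 and 26.4 CPM to none in either skin library (adjusted p = 0.0452 by edgeR, at least 152-fold lower). Of 10 helpers of the mitochondrion, Gatb, a subunit that completes glutaminyl-tRNA, fell from 20.7, 15.5 and 46.5 CPM to no count (at least 195-fold lower, adjusted p = 0.0463). Elac2, which trims tRNA precursors, fell from 5.83, 18.1 and 10.9 CPM to no count (at least 78.4-fold lower, adjusted p = 0.0496). No gene of either list rose by edgeR (0 at an unadjusted p under 0.05), while DESeq2 called 1 scaffold or helper gene of the cytosol higher and limma-voom 0.

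Of 13 tested serine, glycine and folate enzymes outside the set, Mtr, the methionine synthase, fell from 27.5, 28.2 and 38.2 CPM to 0.0936 and 0.399 CPM (adjusted p = 0.0460, log2 fold change -6.94 with SE 1.22 by edgeR) and 0 rose by edgeR, DESeq2 or limma-voom (1 at an unadjusted p under 0.05). Mtr passed the low-count filter through its lymph node counts alone. Of 15 genes of the ATF6 and XBP1 arms of the unfolded protein response, 0 were called by edgeR (3 at an unadjusted p under 0.05), 2 by DESeq2 and 2 by limma-voom, with a median of 0.04. Hspa5, the chaperone BiP, had 1085, 945 and 1198 CPM in lymph node and 1280.2 and 670 CPM in skin, and Canx, the chaperone calnexin, 561, 564 and 499 CPM against 634 and 431 CPM. Both overlapped between the groups.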

How the data were processed

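The submitters' processing notes name HTSeq 0.6.1, TopHat2 2.0.12, Bowtie2 2.1.0.0, SAMtools 0.1.19.0 and CASAVA 1.8.2 with build mm10, without their order or options. Per the labels' protocols, cDNA was made with a SMARTer ultra-low-input kit from column-purified RNA. The deposited table holds raw counts per gene symbol, with no normalization, and its header was read as shifted by 1 cell. Strand and multi-mapping options were not given in the sources used here. How reads on exons shared between genes were assigned, or whether they were left out, is likewise not stated there. Of 24089 lines, 5 summary rows were left out, and genes held 19.3 to 21.7% of all counts.

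Counts were filtered with filterByExpr (minimum count 10), scaled by TMM and tested with edgeR 4.0.16 (R 4.3.3), with limma 3.58.1 and DESeq2 1.42.0 as alternatives. The SE is the fold change divided by the square root of F. The common dispersion was 0.843. No permutation test was made, as the smallest two-sided p that 3 and 2 libraries allow is 0.1. Members and lists were chosen with earlier results of these data known. Values per library were given, by rule, for the ATF4 genes, called synthetases, the 4 cytosolic and 4 mitochondrial others with the highest mean CPM, and called genes of each list (or the 2 with the highest mean CPM). Rars, Iars, Qars, Farsa, Farsb, Iars2, Yars2, Nars2, Ears2, Pars2, Vars2 and the overlapping neighbours were picked with their values in view. Exons of 14 of the 48 genes overlap another gene. Positions and exon lengths came from GENCODE M21. Mars was matched to the RefSeq symbol Mars1. Some values of the set are not reported here.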

Additional observations from a re-analysis of the deposited data

How the results depend on the processing

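Of the 47 tested genes, 29 kept the sign of their log2 fold change in every alternative analysis that tested them and 18 changed it in at least 1. The replicate numbers do not pair the samples by any label, and deviations from the group means correlated at -0.0361 and -0.0323 between same-numbered libraries. With the replicate number as a block, lymph node library 3 has no partner and adds nothing to the comparison. With it edgeR called 11 genes higher and 10 lower in the whole table, 0 cytosolic enzymes higher and 0 mitochondrial ones lower. At an unadjusted p under 0.05 there were 1 gene of the set and 772 of the 11437 tested genes. The block moved the median of the cytosolic enzymes to -0.76 and of the mitochondrial ones to -3.52, and turned Asns (-0.54), Atf4 (-0.0192), Cars (0.0095), Mars2 (-2.60), Mthfd2 (-0.0548), Psph (-0.18), Sars2 (-0.30), Trib3 (-2.69) and Vars2 (-2.57).

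DESeq2 called 1235 genes higher and 2027 lower, with 2 cytosolic enzymes higher and 2 lower, 1 mitochondrial enzyme higher and 5 lower, and 2 of the ATF4 set lower. It turned Cars (0.0188), as did its size factors in edgeR (0.0189), which gave 2 mitochondrial enzymes lower. Limma-voom called 566 higher and 1665 lower, with 2 cytosolic enzymes higher and 2 lower, 5 mitochondrial ones lower and 1 of the ATF4 set lower. Its medians were -0.80 and -3.47 for the cytosolic and mitochondrial enzymes, and it turned Asns (-0.33), Atf4 (-0.0250), Mars2 (-2.62), Mthfd2 (-0.0107), Psph (-0.17), Sars2 (-0.46), Trib3 (-1.97) and Vars2 (-2.76). Without scaling, Atf4 (-0.0379), Eprs (-0.0140) and Sars2 (-0.00996) turned. Without a low-count filter, 136 genes were higher and 179 lower, with 0 cytosolic enzymes higher and 0 mitochondrial ones lower. At an average log2 CPM of 5 or more, 211 genes were higher and 140 lower, a balance opposite to that of all tested genes, 0 of 6 mitochondrial enzymes were lower and Atf4 was at -0.0044. Limma-voom shifted the median of all tested genes from -0.21 to -0.85 and the block to -0.86. The cause of these changes was not tested.

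Leaving out each library in turn gave 0 to 2110 genes higher and 0 to 3955 lower, 0 to 3 cytosolic enzymes higher and 0 to 7 lower, 0 to 2 mitochondrial ones higher and 0 to 10 lower, and 0 to 1 of the ATF4 set higher and 0 to 4 lower. The lowest counts came without a lymph node library, and without a skin library the lone one is assumed to vary like the others. The median of the mitochondrial enzymes ran from -5.76 to -1.39 and of the ATF4 set from -1.26 to 0.17, where that of all tested genes ran from -1.05 to -0.15. Without 1 library, log2 fold changes spanned 0 for Asns (-2.16 to 1.48), Atf4 (-0.39 to 0.31), Cars (-0.31 to 0.20), Cars2 (-0.38 to 0.70), Eprs (-0.16 to 0.22), Fars2 (-0.72 to 0.90), Gars (-0.69 to 0.30), Hars (-3.38 to 0.15), Iars (-3.42 to 0.50), Mars2 (-8.69 to 1.04), Mthfd2 (-0.81 to 0.73), Psat1 (-0.62 to 0.11), Psph (-1.04 to 0.71), Sars2 (-1.66 to 0.82), Trib3 (-9.08 to 2.15), Vars2 (-10.45 to 2.48), Wars (-0.75 to 1.05) and Yars (-2.11 to 0.49). With 2 skin libraries that correlate at 0.645, a gene without a skin count has no spread of its own there.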
